A study of Homo sapiens with 8 samples.

Results

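Among 18714 m6A sites of 2 human osteosarcoma cell lines, 340 were listed in U2OS NC, U2OS shMETTL14 and 143B NC cells and had no listed peak in 143B shMETTL14 cells. They were selected on the presence and absence of listed peaks, so their absence from 143B shMETTL14 is how they were chosen and not a finding. Peaks of all 4 lists that overlapped by at least 1 bp of their spliced blocks on the same strand were joined into 1 site. The 340 sites are 5.69% of the 5976 sites found in the other 3 lists (exact 95% interval 5.12 to 6.31). They carry 326 gene names, of which 16 have 2 such sites and none has more, and all lie on chromosomes 1 to 22 and X.

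The data come from MeRIP-seq, in which RNA fragments are enriched with an antibody against N6-methyladenosine (m6A) and compared with RNA that was not enriched (input). Each line was infected with a lentivirus for a short hairpin RNA, against METTL14 (shMETTL14) or a control hairpin (NC). The groups are 143B shMETTL14, 143B NC, U2OS shMETTL14 and U2OS NC, all grown in DMEM with serum, with 1 input and 1 immunoprecipitated library each. The series addresses which m6A peaks differ between shMETTL14 and NC cells. Both lines are long established, and the labels do not say whether the infected cells are clones or pools.

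METTL14 binds RNA beside METTL3, the catalytic subunit, in the complex that writes m6A on messenger RNA. The mark is known to gather around stop codons and in 3' UTRs, and reader proteins such as the YTHDF family couple it to RNA decay and translation. Lower METTL14 is generally expected to lower the mark across many transcripts at once, while the level of a peak in MeRIP-seq also depends on how much of the transcript is present.

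With 1 list per group, no difference between conditions has a replicate check, and every value below describes these 4 lists without a test. The lists carry no counts and no RNA levels, so read depth is unknown, the knockdown could not be checked, and a less methylated transcript cannot be told apart from a less abundant one. Fold enrichments and p-values are those the authors deposited. A site was given the highest fold and the lowest p among its listed peaks in a list, which may come from different peaks. They rank sites within 1 list only, and are given side by side without a comparison of levels between lists. Intervals are exact Clopper-Pearson intervals that cover counting error only and treat sites as independent. The lists held 35195 peaks for 143B shMETTL14, 33082 for 143B NC, 29992 for U2OS shMETTL14 and 32353 for U2OS NC.

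143B shMETTL14 was the list from which the fewest otherwise shared sites were missing. Against its 5.69%, 11.8% were missing only from U2OS shMETTL14 (752 of 6388, interval 11.0 to 12.6). The control lists also lacked sites that the other lists held: 11.1% were missing only from 143B NC (704 of 6340), and 9.8% only from U2OS NC (612 of 6248). Both control lists thus lacked a larger share than 143B shMETTL14 did. 143B shMETTL14 was also the longest of the lists, with the lowest median p-value over its peaks (5.75e-07, against 7.08e-06 in 143B NC). With 29992 peaks kept per list, those with the lowest p-values, the share missing was 7.69% for 143B shMETTL14 (439 of 5707), 10.8% for 143B NC, 9.5% for U2OS shMETTL14 and 10.2% for U2OS NC, so 143B shMETTL14 was still lowest and U2OS shMETTL14 was no longer highest.

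**Figure D1:**
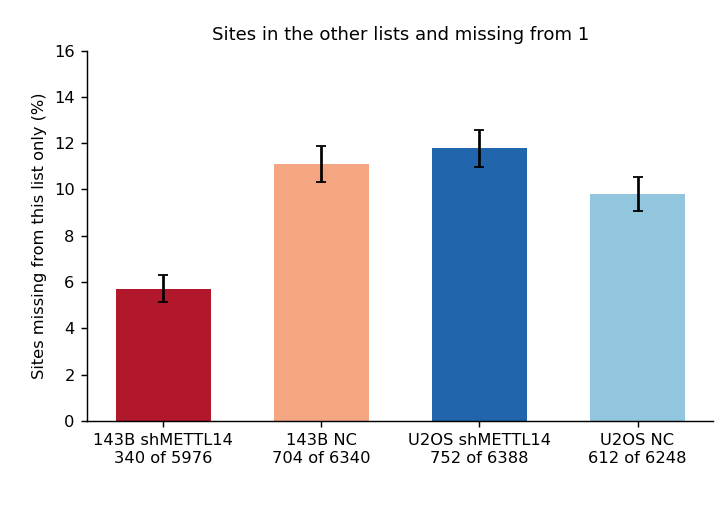
Percentage of sites held by the other 3 lists and missing from the list named on the horizontal axis. Bars start at 0 and error bars are exact 95% intervals for counting error; 143B shMETTL14 has the lowest share, 5.69%, and U2OS shMETTL14 the highest, 11.8%.

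The 340 sites ranked lower by p-value than sites in all 4 lists in each list that held them. In 143B NC their median p-value was 0.000148, against 1.46e-09 for the 5636 sites in all 4 lists. In U2OS shMETTL14 it was 4.07e-05 against 1.35e-09, and in U2OS NC 2.40e-05 against 4.84e-10. As a rank among all sites of a list, the median was at percentile 31.9 in 143B NC, 37.8 in U2OS shMETTL14 and 42.4 in U2OS NC, where sites in all 4 lists stood at 71.4, 69.0 and 71.3 in the same lists. The weakest of the 3 ranks was the one in 143B NC for 161 of the 340 (47.4%), compared with 36.3% of sites in all 4 lists. For 23 of the 340 (6.76%) the site's p-value was at or below the median peak of all 3 lists, and for 152 (44.7%) it was above it in all 3. Sites in all 4 lists divided the other way, with 53.6% and 10.2%. Weakness by p-value was not particular to the 340: sites missing only from U2OS shMETTL14 had a median percentile of 30.0 in U2OS NC, and those missing only from U2OS NC one of 26.8 in U2OS shMETTL14. Among all sites of U2OS NC, 195 of the 340 (57.4%) were below percentile 50 by p-value and 14 (4.12%) in the strongest decile of that list. The 340 had a median of 2 listed peaks per site in each of the 3 lists, against 3 for sites in all 4 lists. In 143B NC 37.9% of the 340 were listed once, against 25.2%. The lowest p was thus taken over fewer peaks at the 340, and ranks at equal numbers of peaks were not compared.

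The share missing from 143B shMETTL14 was larger among sites with weak p-values than among those with strong ones. Here the deciles divide the 5976 sites held by the other 3 lists, and not all sites of a list. Ranked in 143B NC, 133 of 598 sites (22.2%) of the weakest decile were missing, 18 of 597 (3.02%) of the fifth decile, and 0 of 597 and 0 of 598 of the ninth and the strongest decile. In the U2OS NC ranking the share was 17.7% in the weakest decile and 0.67% in the strongest, and in the U2OS shMETTL14 ranking 17.2% and 0.167%.

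By fold enrichment the picture was different. The median fold enrichment of the 340 in 143B NC was 4.70, against 4.56 for sites in all 4 lists, and their median percentile by fold there was 54.9 against 53.1. In the U2OS lists they ranked lower, at 42.5 against 51.5 in U2OS shMETTL14 and 42.9 against 53.8 in U2OS NC. Of the 340, 66 (19.4%) were in the strongest decile of 143B NC by fold, against 7.63% of sites in all 4 lists. A similar excess was seen at sites missing only from 143B NC. In 143B shMETTL14, 17.5% of them were in the strongest decile by fold, against 6.99% of sites in all 4 lists. It was smaller in U2OS: 11.6% against 6.83% in U2OS shMETTL14 for sites missing only from U2OS NC. For those missing only from U2OS shMETTL14 it was 9.44% against 8.45% in U2OS NC. With the 5976 sites held by the other 3 lists divided into deciles by fold in 143B NC, the missing share was highest in the top decile. It was 11.5% there (69 of 598) and lay between 3.01% and 6.03% in the other deciles. Many of these high folds are repeated values: the 72 members with a fold of 10 or more in 143B NC take only 15 distinct values, and 11 of them have the value 13. Of the 72, 56 had a p-value above the median peak of 143B NC, as had 212 of the other 268 members.

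**Figure D2:**
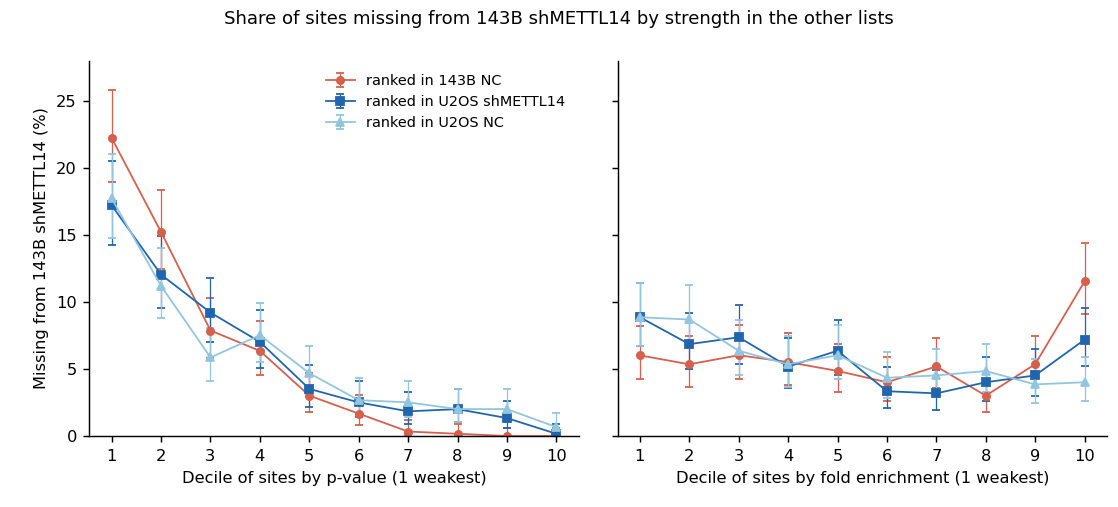
Percentage of the 5976 sites that were missing from 143B shMETTL14, by decile of these sites, with exact 95% intervals. Sites are ranked by p-value (left) or fold enrichment (right) in 143B NC, U2OS shMETTL14 and U2OS NC. By p-value in 143B NC the share is 22.2% in the weakest decile and 0 in the strongest, while by fold enrichment in 143B NC it is highest in the top decile, 11.5%.

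The peaks of the 340 were narrower than those of sites in all 4 lists. The widest listed peak had a median of 151 nt in 143B NC, 180 nt in U2OS shMETTL14 and 208 nt in U2OS NC, against 330, 301 and 329 nt for sites in all 4 lists. Peaks of 61 nt or less were the widest ones at 49 of the 340 (14.4%) in 143B NC, against 2.41% of sites in all 4 lists. Sites missing only from U2OS shMETTL14 were alike in this, with a median of 151 nt in U2OS NC and 14.5% at 61 nt or less, and so were sites missing only from U2OS NC, with 149 nt and 15.4% in U2OS shMETTL14. The lowest-p peak in 143B NC crossed an exon junction at 58 sites (17.1%) against 36.9%. Peaks of all 3 lists shared at least 1 base at 307 of the 340 (90.3%), with a median of 90 shared bases, compared with 96.9% and 240 bases for sites in all 4 lists. The other 33 were joined only through a chain of overlaps. Among the sites named below, these are the sites of SYNPO, PLEKHH2, AXIN2, RASSF2, KSR1, RAB11FIP1 and CECR2, the 3' UTR site of ST8SIA1, and 1 of the 2 sites each of SYNE2 and KIAA2026, in KIAA2026 the one at the edge of the rule.

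In the transcript, the 340 lay less often across the stop codon and more often in UTRs alone than sites in all 4 lists. Peaks across the stop codon alone made up 10 of the 340 (2.94%, interval 1.42 to 5.34), against 9.62% of sites in all 4 lists. Peaks in the 3' UTR alone made up 96 (28.2%, interval 23.5 to 33.3) against 19.8%, and peaks in the 5' UTR alone 15 (4.41%, interval 2.49 to 7.17) against 1.35%. Coding sequence alone held 121 (35.6%) against 33.5%, the start codon 6 (1.76%) against 1.60%, and a mixture of parts 92 (27.1%) against 34.1%. Peaks of the 340 were narrower (median of the widest 151 nt against 330 nt in 143B NC). The shares were not compared at equal width. Under the 2 p-value limits described at the end, the 3' UTR share of members was 19.5% and 17.4%. By the lowest-p 143B NC peak alone it was 34.4%. The share for sites in all 4 lists was not recomputed under these settings.

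Sites missing only from U2OS shMETTL14 lay in the same parts in similar shares, with 3.46% across the stop codon, 30.7% in the 3' UTR and 2.93% in the 5' UTR. Read as a missing share, 15 of 91 sites in the 5' UTR (16.5%) were missing from 143B shMETTL14, 96 of 1214 in the 3' UTR (7.91%), 121 of 2008 in coding sequence (6.03%) and 10 of 552 across the stop codon (1.81%). Strength moved with these shares. For this, the 5976 sites held by the other 3 lists were split at their own median rank by p-value in U2OS NC. In the weaker part, 22.9% of 5' UTR, 10.4% of 3' UTR, 9.63% of coding and 5.88% of stop codon sites were missing. In the stronger part these were 3.33%, 3.14%, 1.56% and 0.693%. The start codon had 4 of 25 (16%) and 2 of 71 (2.82%), and mixed sites 7.56% and 2.29%, so the order of the 6 parts was not the same in the weaker and the stronger part. The stronger 5' UTR value rests on 1 missing site of 30.

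**Figure D3:**
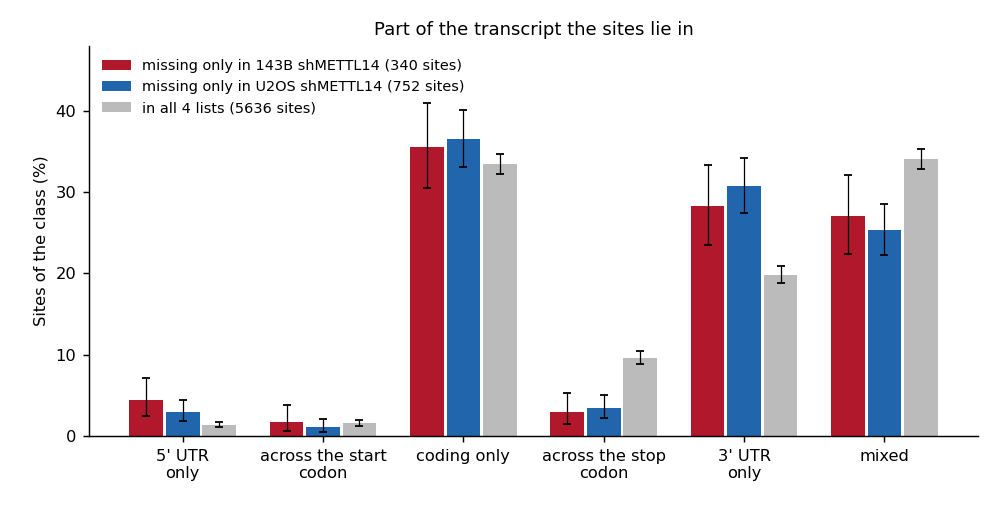
Percentage of sites in each part of the transcript for sites missing only in 143B shMETTL14, sites missing only in U2OS shMETTL14 and sites in all 4 lists, with exact 95% intervals. Both groups of missing sites have fewer stop codon sites (2.94% and 3.46%) and more 3' UTR sites (28.2% and 30.7%) than sites in all 4 lists (9.62% and 19.8%).

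Among the 15 sites in the 5' UTR, that of CCDC80, a secreted matrix protein, was the strongest by p-value, at chromosome 3, 112359279 to 112359877 on hg19. Its fold enrichment was 14.3 in 143B NC (peak p-value 2.1e-06), 5.96 in U2OS shMETTL14 (peak p-value 3.2e-28) and 7.9 in U2OS NC (peak p-value 2e-34). Another site of the gene, at 112349042 to 112357975, was in all 4 lists, with a fold of 5.26 in 143B shMETTL14 (peak p-value 0.00013) and 11.7 in 143B NC (peak p-value 2.6e-07). So CCDC80 kept 1 site in 143B shMETTL14 while its 5' UTR site had no peak there. MEMO1, a mediator of cell motility downstream of ErbB2, had folds of 15.7 in 143B NC, 10.2 in U2OS shMETTL14 and 16.7 in U2OS NC. The neuropilin gene NRP1, a co-receptor for semaphorins and VEGF, had a 5' UTR site with a fold of 4.73 in 143B NC (peak p-value 5.5e-07). Its fold was 4.9 in U2OS shMETTL14 (peak p-value 0.0011) and 5.14 in U2OS NC (peak p-value 0.0025). By p-value it stood at percentile 7.96 of U2OS shMETTL14 and 1.82 of U2OS NC.

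Around most of the 340 sites, other sites of the same gene were present in 143B shMETTL14. For 205 of the 340 the gene had at least 1 peak in that list, for 157 (46.2%) it had another site in all 4 lists, and for 104 (30.6%) it had a site in 143B shMETTL14 that 143B NC lacked. For the other 135 (39.7%, interval 34.5 to 45.1) the gene had no 143B shMETTL14 peak at all. The same share was 31.7% over all 2823 sites of 143B NC without a 143B shMETTL14 peak, and 44.5% over the 752 sites missing only from U2OS shMETTL14, counting genes absent from that list. The shares of 46.2% and 30.6% were counted for the 340 only, so they are not shown to be particular to them. The 143B shMETTL14 list held 12236 sites, of which 2297 were in no other list. The nearest 143B shMETTL14 peak on the strand was a median of 19122 bp away, or 1461 bp where the gene had one. It was within 200 bp for 30 sites (8.82%) and within 1000 bp for 90 (26.5%).

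Those 135 sites carry 133 gene names without a peak in 143B shMETTL14. Of these, 102 had a single site in 143B NC, 25 had 2 and 6 had 3 or more. The 6 were SGK223 (now PRAG1), a pseudokinase, with 4 sites in 143B NC, and PLXNB2, GAB1, TMEM63B and the overlapping names STON1 and STON1-GTF2A1L, with 3 each. STON1, STON1-GTF2A1L and TMEM63B are named after their values were seen. PLXNB2, a semaphorin receptor, had its member site in coding sequence on chromosome 22, 50728583 to 50728914. It had a fold of 5 in 143B NC (peak p-value 5.6e-05), 3.03 in U2OS shMETTL14 (peak p-value 1e-17) and 1.89 in U2OS NC (peak p-value 1.9e-07).

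At the edge of the rule, BCORL1, KIAA2026 (now BRD10), TSPAN14, DYRK2 and DNAAF2 had the shortest gaps to a 143B shMETTL14 peak, of 11, 23, 29, 55 and 57 bp. Just outside it were DNMT3A, NDST2, CALCOCO1 and OGFOD1, which the 143B shMETTL14 peaks overlapped by 1 nt, and CCDC136, which they overlapped by 3 nt. Under 50 nt of overlap there were 14 sites in all 4 lists, and under 50 bp of gap 3 of the 340.

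The site ranked highest by p-value over the 3 lists was in RHOQ, a small GTPase of vesicle traffic, which overlaps PIGF, a gene of GPI anchor synthesis on the other strand. The RHOQ site spans chromosome 2, 46803281 to 46808505 on the plus strand. Its fold was 4.16 in 143B NC (peak p-value 4e-11), 2.54 in U2OS shMETTL14 (peak p-value 1.6e-20) and 2.74 in U2OS NC (peak p-value 4e-27). PIGF, number 3 in the ranking, was listed at 46808106 to 46808493 on the minus strand, with a fold of 3.97 in 143B NC (peak p-value 7.6e-10), 2.43 in U2OS shMETTL14 (peak p-value 1.6e-12) and 2.79 in U2OS NC (peak p-value 5e-26). Whether the libraries keep strand is not given in the sources used here, so reads of the 2 genes cannot be told apart. RHOQ kept another site in 143B shMETTL14, at 46769897 to 46803241, with a fold of 14.4 there (peak p-value 0.00048) and 23.5 in 143B NC (peak p-value 3e-06), while PIGF had no other site.

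JPH3, which couples the plasma membrane to the endoplasmic reticulum, was the only gene among the top 20 by p-value and the top 20 by fold. Its member site, on chromosome 16 from 87723283 to 87730504, had a fold of 26.1 in 143B NC (peak p-value 6.3e-07), 12 in U2OS shMETTL14 (peak p-value 1.6e-17) and 8.24 in U2OS NC (peak p-value 2.5e-27). Peaks of all 3 lists shared 840 nt there, compared with a median of 90 nt for the 340. The other JPH3 site, from 87636841 to 87677989, had 1 peak in each list, with a fold of 5.64 in 143B shMETTL14 (peak p-value 8.9e-10) and 6.17 in 143B NC (peak p-value 5e-13).

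MMP14, a membrane-bound matrix metalloproteinase that activates other proteases at the cell surface, had 2 member sites. The site across the start codon, chromosome 14, 23305796 to 23306094, had a fold of 4.13 in 143B NC (peak p-value 1e-11), 3.08 in U2OS shMETTL14 (peak p-value 2.3e-09) and 10.3 in U2OS NC (peak p-value 5e-21). A coding site at 23314569 to 23315179 had a fold of 2.35 in 143B NC (peak p-value 3e-09), 2.02 in U2OS shMETTL14 (peak p-value 1.9e-07) and 1.87 in U2OS NC (peak p-value 1.9e-08). Further along, MMP14 had a site at 23316075 to 23316373 in all 4 lists, with a fold of 2.43 in 143B shMETTL14 (peak p-value 1.1e-05) and 2.37 in 143B NC (peak p-value 1e-06). The gene therefore had 1 listed site in 143B shMETTL14, against 4 in 143B NC.

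TRIB2, a pseudokinase, and BHLHE41, a circadian repressor, ranked higher by p-value within both U2OS lists than within 143B NC. TRIB2 had the lowest U2OS NC p-value of all 340 sites, 6.3e-86 at a fold of 4.48, with 5e-39 in U2OS shMETTL14 at 5.83 and 6e-05 in 143B NC at 4.06. BHLHE41 had a p-value of 1e-15 in U2OS shMETTL14, 1.3e-50 in U2OS NC and 3.2e-06 in 143B NC. Neither gene had any 143B shMETTL14 peak, and the BHLHE41 site overlaps a site of SSPN on the other strand. PLAT, tissue plasminogen activator, had the opposite order and the lowest p-value of the 340 in 143B NC, 7.9e-18 at a fold of 2.93. Its p-value was 4.9e-10 in U2OS shMETTL14 and 8.1e-09 in U2OS NC, and this was the only joined site of the gene.

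Genes of cell shape and polarity among the top 20 by p-value were PALLD, an actin cross-linker, MAP1A, a microtubule-associated protein, and MPP5 (now PALS1), a polarity scaffold. PALLD had folds of 10.4 in 143B NC, 4.99 in U2OS shMETTL14 and 5.03 in U2OS NC, and MAP1A had 10.4 in 143B NC, 7.54 in U2OS shMETTL14 and 6.14 in U2OS NC. Both had a p-value of 7.9e-05 in 143B NC, and p-values between 3.2e-17 and 1.3e-25 in the U2OS lists. MPP5 had 2 member sites, in coding sequence and across the stop codon, with folds of 2.86 and 3.39 in 143B NC.

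Others of the 20 were BTG2, an antiproliferative factor tied to mRNA decay, TP53I3, a p53-induced oxidoreductase, and FNIP1, a partner of folliculin. BTG2 had a fold of 17 in 143B NC (peak p-value 0.00015), 3.66 in U2OS shMETTL14 (peak p-value 7.9e-18) and 4.49 in U2OS NC (peak p-value 7.9e-17), in the 3' UTR. It had 0 sites in 143B shMETTL14 and 1 in 143B NC, beside 3 in U2OS shMETTL14 and 2 in U2OS NC. FNIP1 had a p-value of 5.2e-08 in 143B NC, 3.2e-08 in U2OS shMETTL14 and 7.9e-11 in U2OS NC. MBNL2, a splicing regulator, FKBP9, a peptidyl-prolyl isomerase of the endoplasmic reticulum, ATP1B1, a subunit of the sodium pump, the small ribosomal subunit protein gene RPS29, FAM212B (now INKA2) and PCNXL4 (now PCNX4) complete the 20. RPS29 and FKBP9 have near-identical copies in the genome and may share reads with them.

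**Figure D4:**
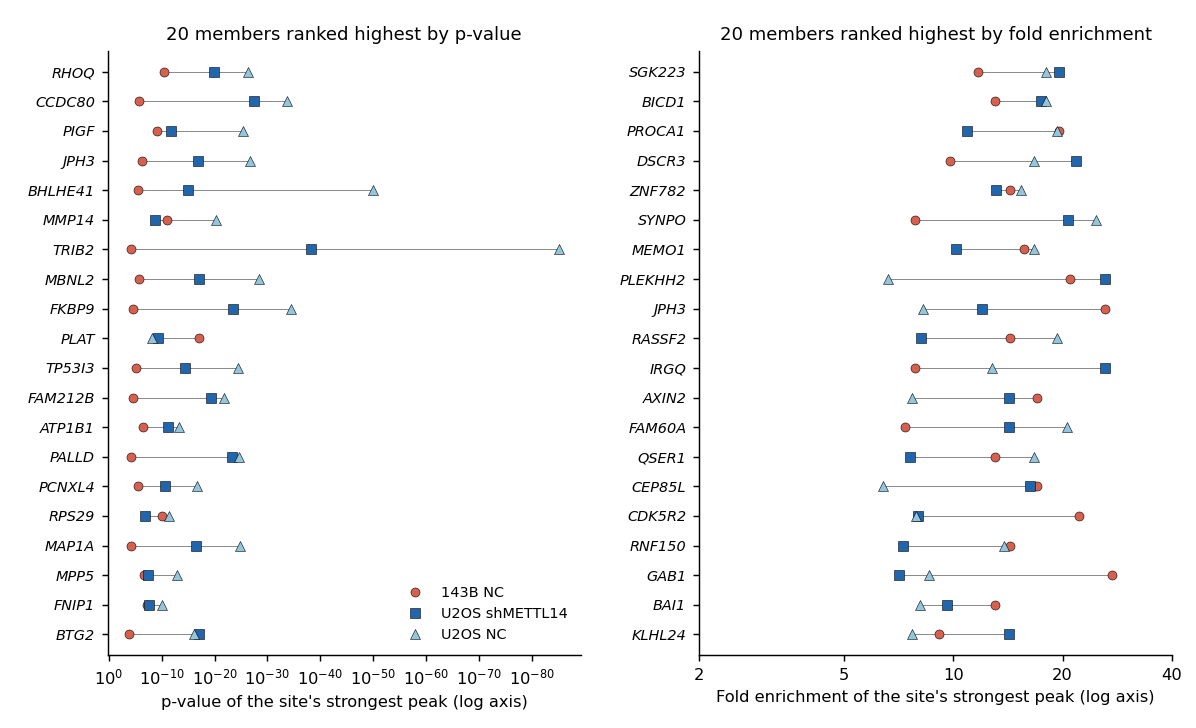
The 20 members ranked highest by p-value (left, log axis, lower p to the right) and by fold enrichment (right, log axis), with the authors' value in 143B NC, U2OS shMETTL14 and U2OS NC as points joined by a line. P-values are not compared in level between lists, since the median peak p-value differs between them; TRIB2 has 6e-05 in 143B NC and 6.3e-86 in U2OS NC. On the right folds lie between 6.42 and 27.4.

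Ranked by fold enrichment, SGK223 led with folds of 11.7 in 143B NC, 19.6 in U2OS shMETTL14 and 18 in U2OS NC, and its p-value was 7.9e-05 or less in each of those lists. BICD1, an adaptor of the dynein motor, had a 3' UTR site with folds of 13 in 143B NC, 17.4 in U2OS shMETTL14 and 18 in U2OS NC. Its second site had folds of 15.7 in 143B NC, 3.27 in U2OS shMETTL14 and 4.92 in U2OS NC. DSCR3 (now VPS26C), an endosomal recycling protein, had 9.78 in 143B NC, 21.8 in U2OS shMETTL14 and 16.7 in U2OS NC. By p-value these sites stood in the middle or lower part of the 340: SGK223 was number 133, BICD1 number 210 and DSCR3 number 124.

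Cytoskeletal genes among the 20 were SYNPO and PLEKHH2, whose products bind actin. SYNPO had folds of 7.83 in 143B NC, 20.7 in U2OS shMETTL14 and 24.7 in U2OS NC, and PLEKHH2 had 20.9 in 143B NC, 26.1 in U2OS shMETTL14 and 6.63 in U2OS NC. Both are chained sites with no base in common to the 3 lists, as were AXIN2 and RASSF2. The SYNPO site lay 89 bp from a 143B shMETTL14 peak, and the gene had 5 sites in 143B shMETTL14 against 2 in 143B NC. PLEKHH2 had none in 143B shMETTL14.

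Others by fold were FAM60A (now SINHCAF), a subunit of the SIN3 deacetylase complex, with 7.39 in 143B NC, 14.2 in U2OS shMETTL14 and 20.5 in U2OS NC, and CDK5R2, an activator of CDK5, with 22.2 in 143B NC, 7.99 in U2OS shMETTL14 and 7.92 in U2OS NC. The adhesion receptor gene BAI1 (now ADGRB1), the ubiquitin ligase gene RNF150 and the CUL3 adaptor gene KLHL24 each had 1 site with folds between 7.26 and 14.3 over those lists. The second member sites of BAI1 and RNF150 were lower, with folds between 4.36 and 7.17. PROCA1, QSER1, ZNF782, IRGQ, CEP85L and RASSF2, a Ras-binding protein, lay between 6.42 and 26.1. The highest fold of any member in 143B NC, 32.6, belonged to FOXO1, which ranked just below the 20.

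The 16 genes with 2 member sites include GLI2, NCOA1, DAAM1, DLG5, MACF1, SYNE2, CNTRL, ST3GAL2 and ST8SIA1 beside those already named (BAI1, BICD1, KIAA2026, MMP14, MPP5, RNF150) and TMEM120B. DAAM1, a formin of the planar polarity pathway, had 1 coding site and 1 across the stop codon and no peak in 143B shMETTL14. The stop codon site had a fold of 5.65 in 143B NC (peak p-value 1.2e-05), 5.84 in U2OS shMETTL14 (peak p-value 7.9e-13) and 2.98 in U2OS NC (peak p-value 1.6e-09). The sialyltransferase gene ST8SIA1, which makes ganglioside GD3, had a 5' UTR and a chained 3' UTR site, with folds of 13 and 6.09 in 143B NC, and no 143B shMETTL14 peak either. The large cytoskeletal linker genes MACF1 and SYNE2, by comparison, had 9 and 4 other sites in 143B shMETTL14, and BAI1 and RNF150 none.

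Gene lists were counted over sites held by the other 3 lists, beside the background of 5.69% missing from 143B shMETTL14. Counts missing only from U2OS shMETTL14 are given beside them and have their own, higher background of 11.8%. Of 38 lists, 4 had an interval wholly above that share and 1 wholly below it, and with this many lists some may do so by counting error alone. The members were chosen with results of these data known, so these counts are descriptions. In 9 lists 0 sites were missing.

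In the list of PI3K, LKB1, mTOR and FOXO genes 6 of 40 sites (15.0%, interval 5.71 to 29.8) were missing from 143B shMETTL14, against 4 of 38 missing only from U2OS shMETTL14. Its members lie at several steps of growth factor signalling: IRS1 and GAB1 are docking proteins at receptors, and FOXO1 is a transcription factor that insulin signalling restrains. FOXO1, on chromosome 13 from 41134220 to 41134459, had a fold of 32.6 in 143B NC (peak p-value 1.1e-08), 6.26 in U2OS shMETTL14 (peak p-value 6.3e-05) and 8.67 in U2OS NC (peak p-value 5.6e-07). FOXO1 had another site in 143B shMETTL14 at 41132850 to 41133089, with a fold of 7.39 (peak p-value 9.5e-05), which was also listed in U2OS shMETTL14 and in neither NC list. IRS1 had 3 sites in 143B shMETTL14 against 2 in 143B NC. GAB1 had none against 3, and its member site had a fold of 27.4 in 143B NC (peak p-value 1.9e-07).

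In the list of integrins, matrix and proteases 6 of 34 sites (17.6%, interval 6.76 to 34.5) were missing, against 1 of 29 only from U2OS shMETTL14. Beside the MMP14 pair these were the metalloproteinase genes MMP15, ADAM19 and, named after its values were seen, ADAMTS12, and TLN2, a talin that links integrins to actin, named likewise. ADAM19 had a 3' UTR site with folds of 3.22 in 143B NC (peak p-value 5.2e-09), 2.43 in U2OS shMETTL14 (peak p-value 0.00083) and 2.77 in U2OS NC (peak p-value 6.3e-07). MMP15 had 7.83 in 143B NC (peak p-value 0.0014), 6.86 in U2OS shMETTL14 (peak p-value 6.3e-12) and 2.47 in U2OS NC (peak p-value 7.8e-05). ADAM19 and MMP15 each had this site alone, so neither was listed in 143B shMETTL14 at all. Also without a 143B shMETTL14 peak was COL5A1, a fibrillar collagen chain counted with the bone list (3 of 26, 11.5%, with 2 of the 3 in GLI2). It had 1 site in 143B NC, 5 in U2OS shMETTL14 and 6 in U2OS NC. GLI2, a transcription factor of Hedgehog signalling, had 1 member site in coding sequence and 1 in the 3' UTR, with folds of 3.91 and 5.87 in 143B NC, and 4 other sites in 143B shMETTL14.

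For semaphorins, plexins, ephrins and axon guidance it was 4 of 13 sites (30.8%, interval 9.09 to 61.4), against 1 of 10 only from U2OS shMETTL14. They are all receptors: PLXNB2, NRP1, EPHB2 and ROBO1, the receptor of the SLIT proteins. EPHB2, an ephrin receptor kinase, had a fold of 5.12 in 143B NC (peak p-value 6e-10), 3.1 in U2OS shMETTL14 (peak p-value 0.00015) and 3.69 in U2OS NC (peak p-value 6.5e-10). EPHB2 and PLXNB2 had no 143B shMETTL14 peak, while NRP1 and ROBO1 had 2 sites each in that list. Genes with TMEM symbols, which share a name and not a function, had 8 of 38 sites missing (21.1%, interval 9.55 to 37.3), against 2 of 32 only from U2OS shMETTL14. Those named by rank were TMEM120B with 2 sites, TMEM132A, TMEM65 and TMEM8B. TMEM65 and TMEM8B had their sites in the 5' UTR, with folds of 13 and 8.69 in 143B NC, and no 143B shMETTL14 peak. One TMEM120B site overlaps the member site of RHOF on the other strand, so these 2 cannot be told apart either.

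**Figure D5:**
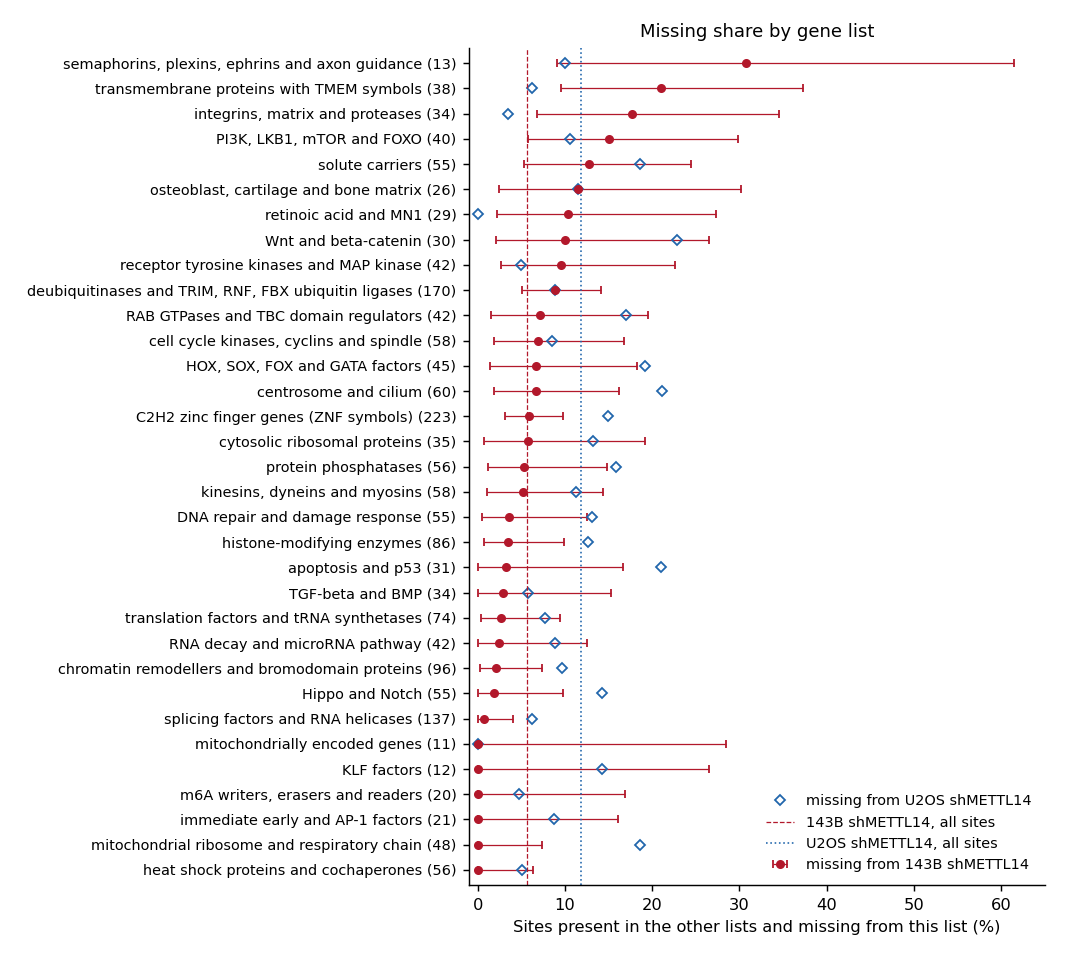
Percentage of sites missing from 143B shMETTL14 (filled points, exact 95% intervals) and from U2OS shMETTL14 (open diamonds) for the gene lists reported here that have at least 10 sites in the other 3 lists, whose number is in brackets. The red dashed line is the 5.69% of all sites missing from 143B shMETTL14 and the blue dotted line the 11.8% missing from U2OS shMETTL14; axon guidance is highest at 30.8%, and splicing factors and RNA helicases lie below the red line at 0.73%.

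Receptor kinases and MAP kinase genes had 4 of 42 sites missing (9.52%), with EPHB2, RPS6KA3, a kinase downstream of ERK, KSR1, a scaffold of that cascade, and DUSP3, a phosphatase. Wnt and beta-catenin genes had 3 of 30 (10.0%): AXIN2, a scaffold that restrains beta-catenin, ZNRF3, a ligase that removes Wnt receptors, and the receptor gene FZD1. AXIN2 had no other site and folds of 17 in 143B NC (peak p-value 0.00015), 14.2 in U2OS shMETTL14 (peak p-value 0.0003) and 7.7 in U2OS NC (peak p-value 1.4e-05). FZD1 had 3 sites in 143B shMETTL14 against 4 in 143B NC, 1 of the 3 at 119 bp from the missing 5' UTR site. Retinoic acid and MN1 genes had 3 of 29 (10.3%), at the nuclear receptor cofactors NCOA1, with 2, and NRIP1. NRIP1 had 3 sites in 143B shMETTL14 against 7 in 143B NC. The TGF-beta and BMP list had 1 of 34, in INHBA, an activin subunit with 2 sites in 143B shMETTL14 against 3 in 143B NC, and the Hippo and Notch list 1 of 55, in the protease gene ADAM10. All of these intervals included 5.69. Missing only from U2OS shMETTL14 were, in the same order of lists, 2 of 40, 8 of 35 (22.9%), 0 of 26, 2 of 35 and 9 of 63 sites. The background there was 11.8%.

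Transporters of the solute carrier families had 7 of 55 sites missing (12.7%), and ubiquitin ligases and deubiquitinases 15 of 170 (8.82%), against 11 of 59 and 15 of 170 missing only from U2OS shMETTL14. SLC7A5, a carrier of large amino acids, had a fold of 2.24 in 143B NC (peak p-value 4.8e-09), 1.75 in U2OS shMETTL14 (peak p-value 1.3e-07) and 1.81 in U2OS NC (peak p-value 4.2e-09). SLC29A4, a monoamine transporter, had 5.22 in 143B NC (peak p-value 7.9e-05), 3.55 in U2OS shMETTL14 (peak p-value 2.2e-09) and 5.94 in U2OS NC (peak p-value 7.9e-27). SLC1A3, a glutamate transporter, and SLC25A23, a mitochondrial carrier, were the next 2 by rank. Among the ubiquitin genes were OTUD1, a deubiquitinase, TRIM5, a retroviral restriction factor, and RNF150.

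In nuclear and cell division lists the missing share was near or below the background. Cell cycle genes had 4 of 58 sites missing (6.90%): CCND2, a G1 cyclin with 1 site in 143B shMETTL14 against 2 in 143B NC, TPX2 and CENPE of the spindle, and ANAPC2 of the anaphase-promoting complex. Centrosome and cilium genes had 4 of 60 (6.67%), with 2 in CNTRL and 1 each in CEP85L and ALMS1, against 15 of 71 (21.1%, background 11.8%) only from U2OS shMETTL14. Histone-modifying enzymes had 3 of 86 (3.49%), in the methyltransferase genes WHSC1 (now NSD2) and NSD1 and the demethylase gene KDM5B, against 12 of 95. None of those 3 genes was without a 143B shMETTL14 site: WHSC1 had 6 there against 6 in 143B NC, NSD1 7 against 7, and KDM5B 1 against 2. Chromatin remodellers had 2 of 96 (2.08%), in BPTF and CECR2, and DNA repair genes 2 of 55, with RECQL5, a helicase, among them. The apoptosis and p53 list had 1 of 31, in MDM4, an inhibitor of p53, against 8 of 38 only from U2OS shMETTL14. Zinc finger genes with ZNF symbols, which are alike in sequence and may share reads, had 13 of 223 (5.83%), against 37 of 247. ZNF354B, ZNF318, ZNF41 and ZNF460 were the highest in rank.

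Splicing factors and RNA helicases, the 1 list with an interval wholly below the background, had 1 of 137 sites missing (0.73%, interval 0.018 to 4.0), against 9 of 145 only from U2OS shMETTL14. The 1 was SRSF3, a splicing factor, in its 3' UTR, with a fold of 2.42 in 143B NC (peak p-value 0.00054), 1.72 in U2OS shMETTL14 (peak p-value 0.0001) and 2 in U2OS NC (peak p-value 5.8e-05). It was the only SRSF3 site. None of 20 sites in m6A writers, erasers and readers was missing from 143B shMETTL14 alone, which allows a share of up to 16.8% by the exact interval, and 1 of 21 was missing only from U2OS shMETTL14. Heat shock and cochaperone genes had 0 of 56, mitochondrial ribosome and respiratory chain genes 0 of 48 (against 11 of 59 only from U2OS shMETTL14, where the background was 11.8%), immediate early genes 0 of 21, KLF factors 0 of 12 and mitochondrially encoded genes 0 of 11. The lists of blood, of epithelial and neural markers and of replication-dependent histones had 0 of 1, 0 of 1 and 0 of 2 sites, too few to describe.

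Remaining lists held few members. The list of translation factors and tRNA synthetases had 2 of 74, in the glycyl-tRNA synthetase gene GARS and in EIF2AK2, a kinase that halts translation on viral RNA. RNA decay genes had 1 of 42, in TNRC6A of the microRNA machinery. Cytosolic ribosomal proteins had 2 of 35, in RPS29 and RPS3A. Motor proteins had 3 of 58, in KIF5B, KIFC2 and KIF13A, where KIFC2 overlaps the member site of FOXH1 on the other strand, and RAB regulators 3 of 42, in TBC1D16, RAB11FIP2 and RAB11FIP1. Phosphatases had 3 of 56, in PTPN1, PPP2R2C and PPP1R12A, and HOX, SOX, FOX and GATA factors 3 of 45, in FOXH1, FOXO1 and HOXA13. HOXA13, a limb patterning factor, had 1 site in each of the other lists and none in 143B shMETTL14, with a fold of 17 in 143B NC (peak p-value 0.00015), 7.9 in U2OS shMETTL14 (peak p-value 1.7e-06) and 7.45 in U2OS NC (peak p-value 6.3e-07). KIF5B, a kinesin of cargo transport, had a fold of 4.33 in 143B NC (peak p-value 1e-11), 2.96 in U2OS shMETTL14 (peak p-value 6e-07) and 2.78 in U2OS NC (peak p-value 8.5e-08), and 1 other site in 143B shMETTL14. Of 3 cadherin sites 1 was missing, in CDH4. Among these, PTPN1, a phosphatase of the insulin receptor, was strong in all 3 lists for a member, with p-values of 3.2e-07 in 143B NC, 1.7e-08 in U2OS shMETTL14 and 3.2e-09 in U2OS NC, and it had no 143B shMETTL14 peak.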

How the data were processed

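MeRIP-seq was done on 143B and U2OS cells with shMETTL14 or NC hairpins, 1 input and 1 immunoprecipitated library per group, and groups come from the sample titles. Per the submitters' processing notes, the tools were HISAT2, Trimmomatic and FastQC 0.11.5, on hg19 (GRCh37). Not given in the sources used here are the strand setting, the depth, the annotation, and the peak caller with its threshold. Per the file headers, each of the 4 deposited lists gives a peak's position, strand, spliced blocks, gene, transcript part, p-value and fold enrichment. The fold enrichment is a linear ratio and the p-value is per peak, both made by the authors; neither was adjusted or rescaled. Input libraries enter only through these values, and RNA levels were not analysed here.

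Peaks of the pooled lists that overlapped by 1 bp or more on a strand were joined, transitively, into sites, and a locus listed once per isoform counts once. Percentiles rank a site among all sites of 1 list, by its highest fold or lowest p. Deciles of the missing share divide the 5976 sites held by the other 3 lists. The transcript part of a site is that of all its peaks in the 3 lists, and mixed where they differ. A gene was called without a 143B shMETTL14 peak when no peak of that list carried its name. The members and gene lists were chosen with earlier results of these data known. Named genes were, on chromosomes 1 to 22 and X, the 20 sites highest by mean percentile of fold, the 20 highest by p, genes with 2 sites, up to 4 sites per gene list, and 5 sites on each side of the edge of the rule. Of 326 gene names, 304 are current symbols and 21 were matched through an older symbol in RefSeq's GRCh38.p14 gene table, used for names only. Some genes and lists that the rule selects are not reported here.

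With 1 list per group no test was made across conditions; intervals are Clopper-Pearson at the 95% level. The joining was run on simulated lists, made by copying 1 U2OS NC peak per site into each list with small shifts. Such lists hold no isoform duplicates and no chains of partly overlapping peaks, so the joining of those was not tested. No sequence is printed, since no hg19 genome was used here. Software was Python 3.11.15 with scipy 1.17.1, pandas 2.3.3, numpy 2.4.6 and matplotlib 3.10.9. Alternatives changed the overlap, strand, blocks, peaks used and chaining; 11 were planned and 2 were chosen after seeing the data.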

Additional observations from a re-analysis of the deposited data

How the results depend on the processing

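Of 97 values under 13 alternatives, 70 stayed within the interval or 1.5 times of the reported value; these are the other 27. A p-value limit at the median of 143B NC for every list gave 118 sites (3.72% of those in the other lists). Of these, 61.9% were in genes without a 143B shMETTL14 peak that passed the limit, and 19.5% in the 3' UTR. Their median p percentiles were 22.4 in 143B NC and 33.4 in U2OS shMETTL14. Another alternative kept, in the other 3 lists, only peaks at or below their own list's median p-value, against the full 143B shMETTL14 list. It left 23 sites (0.757%), with 17.4% in the 3' UTR. Their fold percentile was 44.1 and their p percentiles 22.4 in 143B NC and 47.9 in U2OS NC. Using only peaks with folds above their own list's median gave 10.4% missing, 49.3% in such genes, 23.2% in the 3' UTR, a fold percentile of 46.3 and p percentiles of 44.9 in 143B NC, 49.8 in U2OS shMETTL14 and 52.8 in U2OS NC. Equal numbers of peaks gave 7.69% missing, 48.8% in such genes and 41.5 in U2OS shMETTL14. Joining within 200 bp gave 45.4% in such genes and a p percentile of 29.3 in 143B NC. Requiring 1 common 143B NC peak gave 6.46% missing and 31.2% in such genes. Taking the part of the strongest 143B NC peak alone put 34.4% in the 3' UTR. Percentiles under a filter are ranks within the filtered lists. Where 143B shMETTL14 was filtered too, sites and genes whose peaks there all failed the filter count as missing or without a peak. Other causes of these shifts were not tested. The number missing thus changes with which peaks are kept, and no value in these lists separates a site absent from 143B shMETTL14 from one just under its caller's threshold, which is not given in the sources used here. No paired analysis was possible because each group has 1 list.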

Other observations

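Overlap with a site on the opposite strand was found at 11 of the 340 sites (3.24%), against 155 of the 5636 sites in all 4 lists (2.75%). Of the 11, 8 form 4 pairs in which both sites are members: RHOQ with PIGF, RHOF with TMEM120B, KIFC2 with FOXH1 and WDR55 with DND1. BHLHE41 overlaps a site of SSPN and DUSP18 a site of SLC35E4, neither listed in 143B shMETTL14, and SNX22 overlaps a site of PPIB that has a 143B shMETTL14 peak. The genes outside the named set were chosen after their values were seen.

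By chromosome, the share of sites missing only from 143B shMETTL14 lay between 3.41% on chromosome 3 and 8.5% on chromosome 4 (17 of 200 sites). SNX22 had the lowest fold enrichment of any member in U2OS NC, 1.22, and TMSB4X the lowest in 143B NC, 1.44. The highest fold of any member in U2OS NC was 30.8, in the 5' UTR of ZNRF1, a ubiquitin ligase gene, which had 18.3 in 143B NC and 3.27 in U2OS shMETTL14. Folliculin (FLCN) and its partner FNIP1 are both among the 326 gene names, and so is VHL, whose gene had 3 sites in 143B shMETTL14 against 4 in 143B NC.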
